A study of Homo sapiens with 2 samples.

Results

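The nuclear genes of the respiratory chain and of ATP synthase were followed in Huh7 cells, an established human hepatocellular carcinoma line, with and without knockdown of PPIL1. They were taken by symbol: NDUFA, NDUFB, NDUFC, NDUFS and NDUFV genes without the NDUFAF assembly factors, SDHA to SDHD, UQCR genes with CYC1, CYCS, 10 named COX genes, and ATP5F1, ATP5M and ATP5P genes. This gave 84 of the 19927 genes in the count table. Of these, 80 reached 1 CPM (counts scaled to the library's total) in at least 1 library and are called kept, as were 12540 genes in all.

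Messenger RNA was sequenced in 1 library from cells with a control hairpin (shControl, with the genotype label WT) and in 1 library from cells with a short hairpin RNA against PPIL1 (shPPIL1#1, called shPPIL1 here). No other agent or time is named in the labels, and both groups share the Huh7 background and culture medium. PPIL1 is a prolyl isomerase of the spliceosome. A single hairpin and a single library stand for each condition, so no p-value can be given. "Higher" and "lower" compare the knockdown library with the control library, and an effect of the hairpin, of PPIL1 loss or of the culture cannot be told apart.

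The respiratory chain passes electrons from NADH (complex I) and succinate (complex II) through coenzyme Q to complex III, then through cytochrome c to complex IV, where oxygen is reduced. Complexes I, III and IV pump protons across the inner mitochondrial membrane, and complex V uses the gradient to make ATP. Most subunits are encoded in the nucleus and imported, while a small set of membrane-embedded subunits is encoded by mitochondrial DNA. Complex II alone is built from nuclear genes only.

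PPIL1 itself went from 1505 to 104 reads, which is 6.79% of the control level (95% interval 5.51 to 8.29%). The libraries held 41015345 and 41165401 counted reads. The hepatocyte and hepatoma markers ALB, AFP, APOA1, APOA2, FGB, TTR, SERPINA1 and HNF4A were all present, from 87.3 to 4564 FPKM (fragments scaled by gene length and library total) in the control. Of 17 markers of fibroblasts, endothelium, leukocytes, neurons and striated muscle, 7 were kept: COL1A1, COL3A1, LUM, PECAM1, CD14, CD68 and SNAP25. The endothelial PECAM1 had 410 and 352 reads, a ratio of 0.843 (0.729 to 0.975). COL1A1 had 415 and 470 reads, CD14 76 and 96, and SNAP25 65 and 61. The markers that were not kept had at most 15 reads in the control (CDH5). LUM and CD68 were the highest of the 17 at 13.8 and 19.5 FPKM, with ratios of 0.980 (0.912 to 1.05) and 0.921 (0.852 to 0.995), and COL3A1 had 16 and 48 reads. The labels name Huh7 cells only, and the source of these marker reads was not tested. In these bulk libraries fewer cells with a marker and less of its RNA per cell cannot be told apart.

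The subunit genes shifted little, and more of them were higher than lower. Each ratio is the knockdown over the control level after scaling of the libraries, with an exact 95% interval that covers counting error only. A gene counts as called where the libraries differed by 1.1-fold or more with an interval clear of 1. Of 80 kept genes, 21 were called higher (26.2%), where 17.5% of all kept genes were, and 6 were called lower (7.5%), where 19% of all kept genes were. The other 53 were not called. The median log2 ratio was 0.05 (middle 50% from -0.0029 to 0.15), and that of all kept genes was -0.0017 (-0.13 to 0.12). By the interval alone, 40 were higher, 11 lower and 29 had an interval including 1, against 24.6% higher and 26.4% lower of all kept genes.

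Sizes were small. At 1.2-fold, 4 genes were higher and 2 lower, where 8.32% and 9.52% of all kept genes were. At 1.5-fold, 1 was higher and 0 lower, where 2.02% and 2.22% of all kept genes were. Of the 80 genes, 74 lay within 1.2-fold (92.5%), as did 78.7% of all kept genes. The subunit genes are also deeply read, with a median of 4194 control reads and only 10 genes under 1000. Among genes with at least 1000 control reads, 15 of 70 subunit genes were called higher and 5 lower, where 14% and 20.4% of all such genes were. Their median was 0.05 against -0.01. At this depth 95.7% of the subunit genes lay within 1.2-fold, as did 89.7% of all such genes, a smaller gap than without the depth limit. Summed over the 80 genes, reads took 1.09% of the control library and 1.13% of the knockdown library (ratio 1.03, 1.02 to 1.03).

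The 4 remaining genes were not kept. The read-through loci ATP5MF-PTCD1 and NDUFC2-KCTD14 and the intronless ATP5MGL were listed at 0 in both libraries. Other genes, among them ATP5MF and NDUFC2, overlap 93.8% and 100% of the exon bases of these read-through loci. How shared reads were assigned is not given, so a 0 does not show absence there. NDUFA4L2, a relative of NDUFA4 known as a hypoxia-induced gene, had 28 and 39 reads, which gave a ratio of 1.37 whose interval (0.821 to 2.31) included 1.

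**Figure D1:**
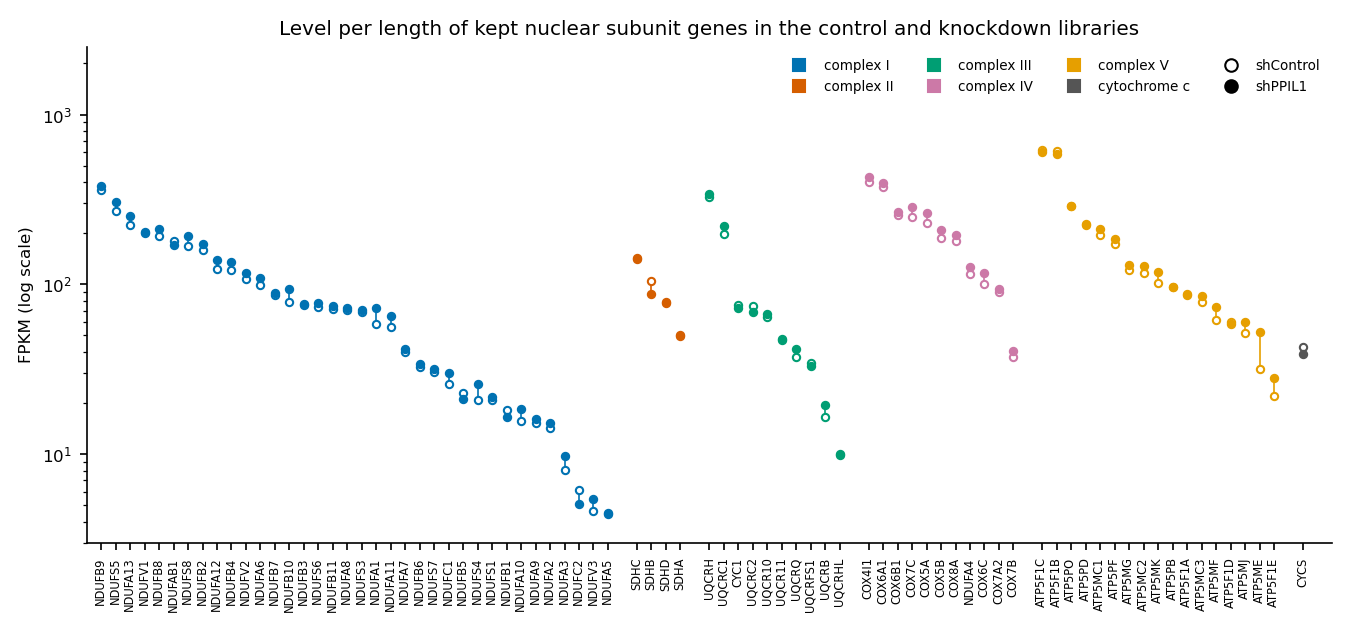
FPKM (log scale) of the kept genes reported here, ordered by control level within each complex, with shControl as open and shPPIL1 as filled circles. The order within a complex spans from 4.53 (NDUFA5) to 359 FPKM (NDUFB9) in complex I and from 21.9 (ATP5F1E) to 618 FPKM (ATP5F1C) in complex V, and the pairs of circles lie close together beside that span.

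Promoter sequences are shown for 6 called genes, and the part of promoter sequence in any ratio was not tested. These are the 3 higher and 3 lower called genes with the most extreme interval bounds among those whose RefSeq promoter entry was used here. NDUFC2, which had the lowest ratio, and UQCRB had no such entry and are not shown. Each sequence (RefSeq, GRCh38.p14) runs 5′ to 3′ on the gene's own strand, from 250 bases before to 50 bases after the annotated start. Capitals mark exact matches, on either strand, to 3 motifs known from promoters of respiratory genes: GCGCATGC for NRF1, CCGGAAG for ETS factors such as GABPA, and AAGATGGC for YY1.
ATP5ME: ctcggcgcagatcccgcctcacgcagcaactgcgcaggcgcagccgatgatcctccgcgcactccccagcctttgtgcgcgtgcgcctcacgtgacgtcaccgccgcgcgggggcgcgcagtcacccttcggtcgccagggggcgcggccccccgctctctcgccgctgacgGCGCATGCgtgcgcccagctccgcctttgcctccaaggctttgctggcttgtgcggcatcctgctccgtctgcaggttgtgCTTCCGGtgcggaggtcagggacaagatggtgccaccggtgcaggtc
ATP5F1E: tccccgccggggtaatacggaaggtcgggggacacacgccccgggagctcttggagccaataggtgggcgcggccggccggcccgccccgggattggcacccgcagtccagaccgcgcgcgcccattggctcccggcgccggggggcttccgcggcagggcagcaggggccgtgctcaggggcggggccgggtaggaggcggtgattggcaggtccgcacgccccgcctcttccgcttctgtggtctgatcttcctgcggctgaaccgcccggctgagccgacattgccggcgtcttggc
NDUFA1: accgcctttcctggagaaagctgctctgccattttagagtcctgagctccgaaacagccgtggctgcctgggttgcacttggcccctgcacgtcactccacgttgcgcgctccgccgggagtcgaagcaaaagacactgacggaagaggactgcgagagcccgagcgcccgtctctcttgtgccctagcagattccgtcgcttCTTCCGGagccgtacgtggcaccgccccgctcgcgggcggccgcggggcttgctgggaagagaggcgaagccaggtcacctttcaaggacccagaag
SDHB: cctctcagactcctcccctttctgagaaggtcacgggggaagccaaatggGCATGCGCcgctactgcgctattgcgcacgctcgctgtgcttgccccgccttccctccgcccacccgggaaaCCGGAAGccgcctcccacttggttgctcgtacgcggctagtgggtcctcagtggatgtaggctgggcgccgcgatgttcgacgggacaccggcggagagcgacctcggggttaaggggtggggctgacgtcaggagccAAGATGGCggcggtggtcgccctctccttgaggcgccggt
CYCS: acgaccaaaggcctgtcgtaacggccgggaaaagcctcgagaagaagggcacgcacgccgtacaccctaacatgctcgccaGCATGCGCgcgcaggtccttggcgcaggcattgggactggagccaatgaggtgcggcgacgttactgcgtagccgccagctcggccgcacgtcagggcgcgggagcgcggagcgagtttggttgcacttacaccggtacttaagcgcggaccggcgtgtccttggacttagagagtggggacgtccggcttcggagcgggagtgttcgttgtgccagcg
UQCRC2: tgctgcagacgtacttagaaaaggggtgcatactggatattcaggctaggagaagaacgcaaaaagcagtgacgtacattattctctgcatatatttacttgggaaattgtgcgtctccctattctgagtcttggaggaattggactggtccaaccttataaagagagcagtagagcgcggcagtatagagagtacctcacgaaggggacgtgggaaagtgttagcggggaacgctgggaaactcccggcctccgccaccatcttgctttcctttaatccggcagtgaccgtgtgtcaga
The higher genes are ATP5ME (chr4:674227-674526, minus strand), ATP5F1E (chr20:59032286-59032585, minus) and NDUFA1 (chrX:119871582-119871881, plus). The lower genes are SDHB (chr1:17053983-17054282, minus), CYCS (chr7:25125211-25125510, minus) and UQCRC2 (chr16:21953111-21953410, plus).

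Motif matches stood on both sides. ATP5ME held an NRF1 match beginning 78 bases before the start and an ETS match 4 bases after it, and NDUFA1 held an ETS match 47 bases before it. SDHB held all 3 motifs, an NRF1 match 200 bases before the start, an ETS match 128 bases before it and a YY1 match 11 bases after it. CYCS held an NRF1 match 169 bases before its start. No printed window had overlapping matches, and ATP5F1E and UQCRC2 had none of these letters in their windows.

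Over all subunit genes with a promoter entry (66 of the 80), 14 held the NRF1 motif (21.2%), 20 the ETS motif (30.3%) and 11 the YY1 motif (16.7%). In 10273 promoters of kept genes these shares were 5.39%, 19.2% and 5.36%. The 35 subunit genes with at least 1 motif had a median log2 ratio of 0.05 and the 31 with none 0.10. Over all kept genes the medians were -0.01 with a motif and 0.0017 without. By complex, 14 of 32 genes of complex I, 2 of 3 of complex II, 4 of 7 of complex III, 5 of 10 of complex IV and 9 of 13 of complex V held at least 1 motif.

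Calls were counted by complex, beside 17.5% higher and 19% lower of all kept genes. Complex I had 12 higher and 3 lower of 37 kept genes, with a median log2 ratio of 0.05. Complex II had 0 higher and 1 lower of 4, with a median of -0.02, and complex III had 1 higher and 1 lower of 10, with a median of 0.02. Complex IV had 3 higher and 0 lower of 11 and the highest median, 0.10. Complex V had 5 higher and 0 lower of 17, with a median of 0.09. Its SD over genes of 0.19 was the widest, against 0.13 in complexes I and II, 0.11 in III and 0.06 in IV. That SD includes ATP5ME at 0.70, whose exons overlap MYL5 as described below, and the SD without ATP5ME is not given. The genes of a complex come from the same pair of libraries and are not replicates, so no test between complexes was made.

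Summed reads weight the abundant genes and gave another order for complex V. The summed ratio was 1.08 (1.07 to 1.09) for complex IV, 1.05 (1.04 to 1.05) for complex I and 1.03 (1.02 to 1.05) for complex III. It was 0.964 (0.946 to 0.982) for complex II. For complex V it was 0.997 (0.990 to 1.00), while its median gene was above 1. Its most read genes, ATP5F1B and ATP5F1C, had ratios of 0.946 and 0.954. Counted per length, the summed FPKM of complex V went from 2938 to 3013, a ratio of 1.03.

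**Figure D2:**
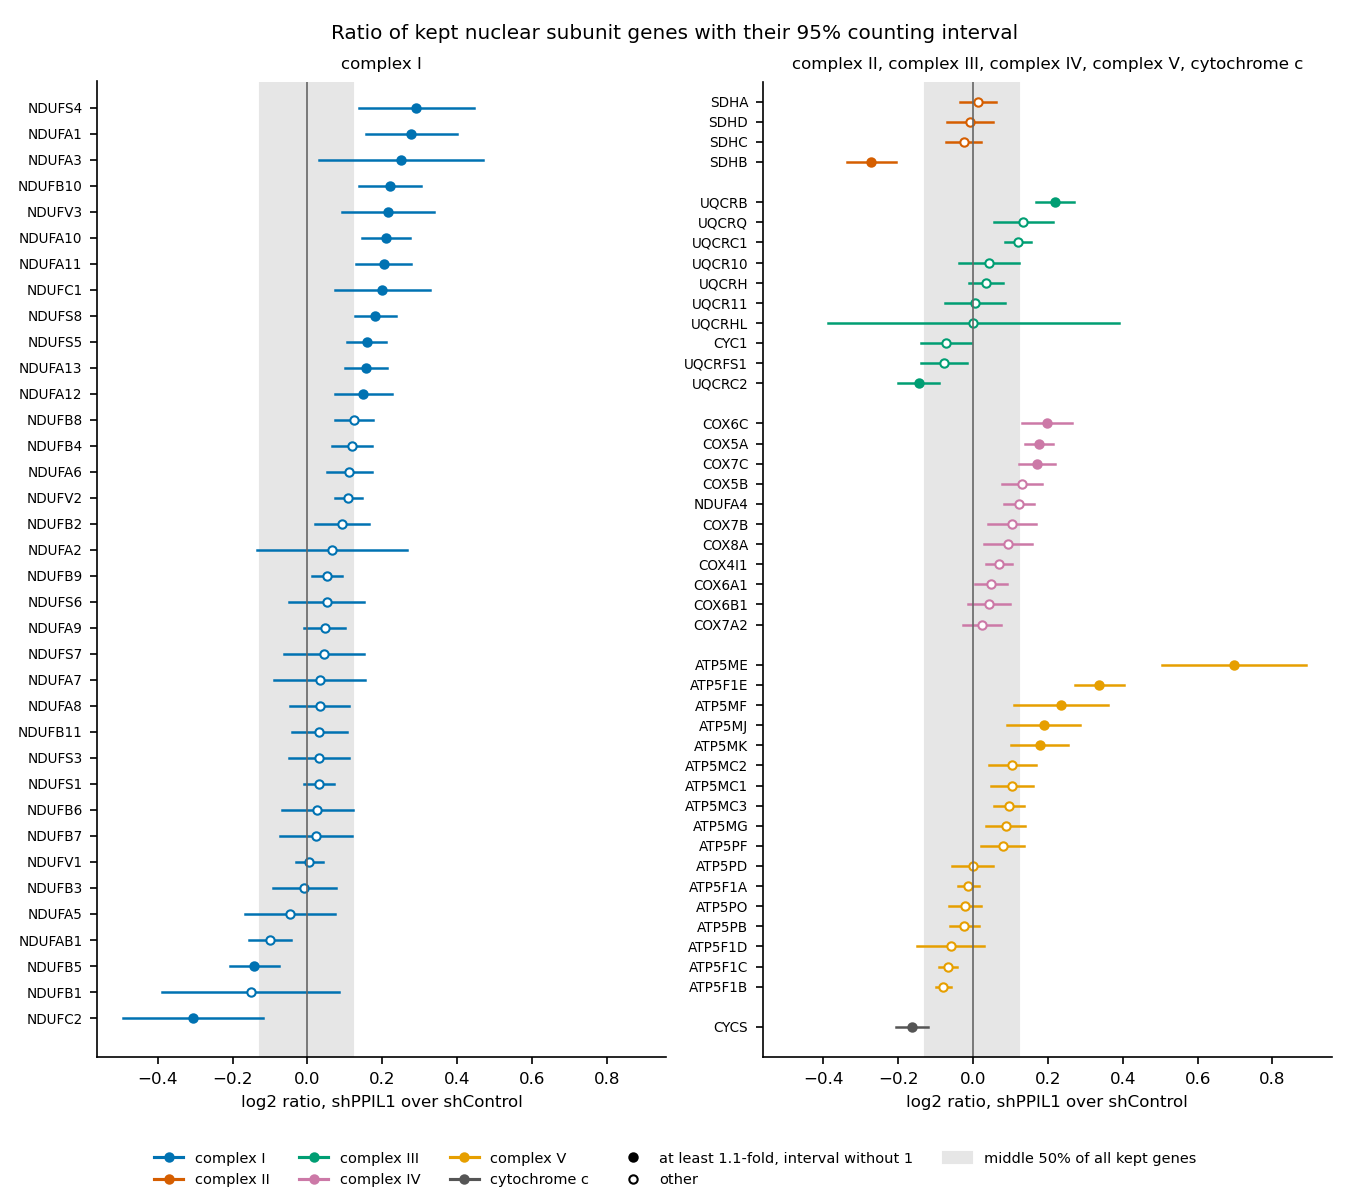
Log2 ratio of knockdown over control for the kept genes reported here, each with its 95% counting interval, complex I on the left and the others on the right, filled where called and open otherwise; the grey band holds the middle 50% of all kept genes. All 11 complex IV genes lie above 0, whereas complex II has SDHB at -0.27 and the other 3 genes between -0.02 and 0.01.

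Complex I, the NADH dehydrogenase, has a matrix arm that holds the NADH site and iron-sulfur clusters and a membrane arm that pumps protons. Among its catalytic core genes of nuclear origin, most of those described here were level. NDUFV1, which binds NADH and flavin, had 12709 and 12984 reads, which gave a ratio of 1.00 (0.979 to 1.03). NDUFS1, the largest iron-sulfur subunit, had 9891 and 10288 reads (1.02, 0.994 to 1.05). Neither differed beyond counting error.

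NDUFS8, an iron-sulfur subunit of the matrix arm, had 5051 and 5829 reads, which gave a ratio of 1.13 (1.09 to 1.18). It was the core gene called higher. NDUFV2 was at 1.08 (1.05 to 1.11), short of the 1.1-fold used for a call. NDUFS3 and NDUFS7 had ratios of 1.02 and 1.03 with intervals including 1.

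The 9 accessory genes of the matrix arm had 3 called higher (33.3%) and 0 lower, where 17.5% and 19% of all kept genes were. Their median was 0.07. NDUFS4, an accessory subunit of the NADH module known from inherited Leigh syndrome, had 628 and 782 reads, or 20.9 and 26.0 FPKM. Its ratio of 1.22 (1.1 to 1.36) was the highest of complex I. NDUFV3 had 990 and 1170 reads (1.16, 1.07 to 1.26) and NDUFA12 2614 and 2951 (1.11, 1.05 to 1.17). The other 6 (NDUFA2, NDUFA5, NDUFA6, NDUFA7, NDUFA9 and NDUFS6) ran from 0.968 for NDUFA5 to 1.08 for NDUFA6, the last with an interval above 1 (1.04 to 1.13).

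The membrane arm had 8 of 20 genes called higher (40%) and 2 lower (10%), where 17.5% and 19% of all kept genes were. Its median was 0.11. NDUFA1, a small subunit encoded on the X chromosome and needed to assemble the membrane arm, had 1012 and 1249 reads, or 58.6 and 72.1 FPKM, which gave a ratio of 1.21 (1.12 to 1.32). RNF113A on the opposite strand covers 44.5% of its exon bases and had 706 and 647 reads (0.9, 0.808 to 1.00). NDUFB10 had 2192 and 2600 reads (1.17, 1.1 to 1.23) and NDUFA10 3616 and 4255 (1.16, 1.11 to 1.21). NDUFA11 (1.15), NDUFC1 (1.15), NDUFA13 (1.12), NDUFS5 (1.12) and NDUFA3 (1.19, with 314 and 380 reads) were the other higher genes. The most abundant gene of the complex per length, NDUFB9, went from 359 to 377 FPKM, which gave a ratio of 1.04 (1.01 to 1.07).

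Lower genes of the membrane arm were NDUFC2, with 526 and 433 reads (0.809, 0.711 to 0.920), and NDUFB5, with 3850 and 3552 (0.906, 0.866 to 0.949). The ratios of NDUFC2 and NDUFC1 lay on opposite sides of 1. NDUFB1 had a ratio of 0.901, but with 312 and 286 reads its interval (0.764 to 1.06) included 1. NDUFB2, NDUFB4 and NDUFB8 had ratios of 1.07, 1.09 and 1.09 with intervals above 1, and NDUFA8, NDUFB3, NDUFB6, NDUFB7 and NDUFB11 lay between 0.995 and 1.02. NDUFAB1, the mitochondrial acyl carrier protein that sits in both arms, had 5277 and 5009 reads, which gave a ratio of 0.933 (0.897 to 0.970).

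Complex II, succinate dehydrogenase, is also an enzyme of the citric acid cycle. SDHB, its iron-sulfur subunit, went from 4169 to 3514 reads, or 104 and 87.7 FPKM. Its ratio was 0.828 (0.792 to 0.866), with the most extreme bound of all lower subunit genes. The other subunits did not differ beyond counting error. SDHA, the flavoprotein, had 6653 and 6833 reads (1.01, 0.975 to 1.04), and the membrane anchors SDHC and SDHD had 7430 and 7434 reads (0.983, 0.952 to 1.02) and 4218 and 4266 reads (0.994, 0.952 to 1.04). SDHB lies on chromosome 1 from 17018722 to 17054032 and its longest coding transcript has 8 exons.

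SDHB also carries the 6-base motif GATCAT in its coding sequence. No source for this motif is given here, so the splits by it are descriptions only. Over all kept genes, carriers of this motif in the coding sequence or 3' UTR had a median log2 ratio of -0.02, with 14.8% called higher and 23.5% lower. The other kept genes had a median of 0.02, with 19.8% higher and 14.7% lower. Carriers were also longer, with a median gene length of 4218 bases against 2534. Among the subunit genes 22 of 80 carried it (27.5%, against 48.5% of kept genes), with a median of 0.04, 3 called higher and 3 lower. The 58 others had a median of 0.07, with 18 called higher and 3 lower. The part of the motif, or of gene length, in any ratio was not tested. The 3 lower carriers were SDHB, CYCS and NDUFB5.

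Complex III, the cytochrome bc1 complex, passes electrons from coenzyme Q to cytochrome c. Its catalytic nuclear subunits were slightly lower: the Rieske iron-sulfur protein UQCRFS1 had 4348 and 4190 reads (0.947, 0.907 to 0.988) and cytochrome c1, CYC1, had 3689 and 3569 (0.951, 0.908 to 0.996). Both intervals lay below 1 and neither gene reached 1.1-fold. The 2 core proteins stood apart from each other. UQCRC1 had 13005 and 14385 reads (1.09, 1.06 to 1.11), while UQCRC2 had 5852 and 5383 (0.904, 0.871 to 0.938).

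Small subunits of complex III were level or higher. UQCRB, the coenzyme Q-binding protein, had 5844 and 6917 reads, which gave a ratio of 1.16 (1.12 to 1.2), and UQCRQ had 2405 and 2687 (1.1, 1.04 to 1.16), just short of the call at 1.098. UQCR10, UQCR11 and the hinge protein UQCRH had ratios of 1.03, 1.00 and 1.02 with intervals including 1. UQCRH was the most abundant gene of the complex, with 327 and 339 FPKM. Its intronless copy UQCRHL had 112 and 114 reads, and 15.7% of the 100-base windows of UQCRH matched that copy exactly. Their summed ratio was 1.02 (0.992 to 1.06).

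CYCS, the mobile carrier cytochrome c, went from 9546 to 8677 reads, or 42.8 and 38.8 FPKM. Its ratio of 0.893 (0.867 to 0.920) placed it with CYC1 and UQCRFS1 on the lower side. The nuclear COX genes, described next, all had ratios above 1.

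Complex IV, cytochrome c oxidase, keeps its catalytic subunits in mitochondrial DNA, so all nuclear members here are supporting subunits. NDUFA4 was counted with it, since its product is now placed in complex IV. All 11 kept genes had ratios above 1, 9 of them with an interval above 1. Of all kept genes, 24.6% had such an interval. COX5A, which faces the matrix, had 11028 and 12680 reads, or 229 and 263 FPKM, which gave a ratio of 1.13 (1.1 to 1.16). The membrane subunits COX6C and COX7C had 3469 and 4048 reads (1.15, 1.1 to 1.2) and 6444 and 7378 (1.12, 1.09 to 1.16).

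The remaining genes of complex IV formed a narrow range. COX4I1, the most abundant per length with 402 and 427 FPKM, had a ratio of 1.05 (1.02 to 1.07). COX5B and NDUFA4 had ratios of 1.095 and 1.09, just under the call, followed by COX7B (1.07) and COX8A (1.07). COX6A1 was at 1.03 (1.00 to 1.07). It was also the only subunit gene with at least 20% of its windows matching a gene elsewhere, the copy COX6A1P2 (22.9%). COX6B1 and COX7A2 had ratios of 1.03 and 1.02 with intervals including 1.

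Complex V, ATP synthase, joins a catalytic F1 head in the matrix to a rotor in the membrane through a central and a peripheral stalk. The 5 ATP5F1 genes are grouped here as F1 head, although their gamma, delta and epsilon subunits belong to the central stalk. Of these genes, 4 had ratios below 1 and 1 was well above it. ATP5F1B, the catalytic beta subunit and the most read subunit gene, had 44091 and 42476 reads, which gave a ratio of 0.946 (0.934 to 0.959). The gamma subunit ATP5F1C had 26479 and 25719 reads (0.954, 0.938 to 0.971), or 618 and 598 FPKM, the highest level per length of all subunit genes. ATP5F1A (0.991) and ATP5F1D (0.959) had intervals including 1, and 0 of these 4 genes reached 1.1-fold.

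ATP5F1E, the small epsilon subunit of the same group, had 3240 and 4167 reads, which gave a ratio of 1.26 (1.21 to 1.32). Its level of 21.9 and 28.0 FPKM rests on a gene length of 3610 bases in the authors' values, against a coding sequence of 153 bases, so its order among the F1 genes follows that length. The tubulin gene TUBB1 on the other strand overlaps 23.2% of its exon bases and had 11 and 24 reads.

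Most called genes of complex V were small membrane subunits. All 5 of these genes had intervals above 1 and 4 were called higher, where 24.6% and 17.5% of all kept genes were. Their median was 0.19 and their summed ratio 1.12 (1.09 to 1.15). ATP5ME, subunit e, which helps ATP synthase dimerise, went from 360 to 594 reads, or 31.8 and 52.3 FPKM. Its ratio of 1.62 (1.42 to 1.85) was the only one of the 80 past 1.5-fold. Without a stated strand its reads cannot be told apart from those of MYL5, on the opposite strand, whose exons cover 61.6% of the exon bases of ATP5ME. MYL5 was assigned 91 and 144 reads, which gave a ratio of 1.55 (1.19 to 2.04). The part of this overlap in the ratio of ATP5ME was not tested.

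ATP5MF, subunit f, had 953 and 1142 reads (1.18, 1.08 to 1.28), and the small proteolipid ATP5MJ and ATP5MK, also known as DAPIT, had ratios of 1.14 (1.07 to 1.22) and 1.13 (1.07 to 1.19). ATP5MG, subunit g, was at 1.06 (1.02 to 1.1). The 3 genes of the rotor's c-ring encode the same mature protein and had near-equal ratios. ATP5MC1 had 4868 and 5327 reads (1.08, 1.03 to 1.12), ATP5MC2 3871 and 4236 (1.08, 1.03 to 1.12) and ATP5MC3 9254 and 10063 (1.07, 1.04 to 1.1). The peripheral stalk was level, with ATP5PB at 0.984, ATP5PO at 0.986, ATP5PD at 0.999 and ATP5PF at 1.06 (1.02 to 1.1).

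**Figure D3:**
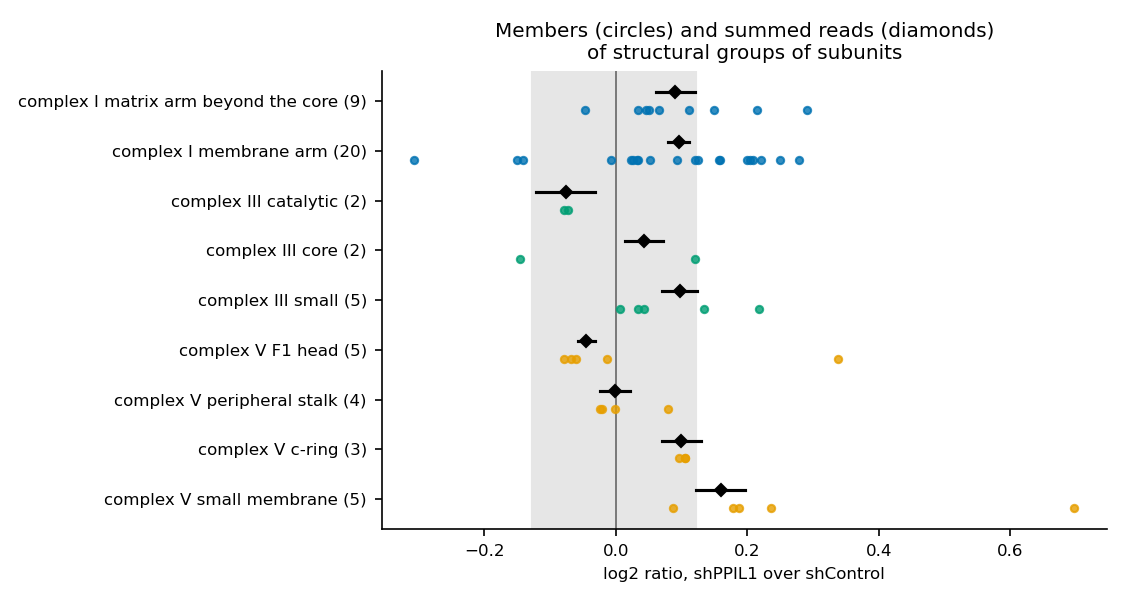
Log2 ratio of single genes (circles) and of the summed reads with their 95% counting interval (diamonds and bars) for structural groups of complexes I (without its catalytic core), III and V, with the number of genes in brackets and the middle 50% of all kept genes in grey. The summed ratio is lowest for the catalytic genes of complex III (-0.08) and the F1 head (-0.05), and highest for the small membrane genes of complex V (0.16).

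A subunit gene with a short coding sequence tended to have a higher ratio. Coding length was the longest coding sequence of the gene in GENCODE 29. The 40 genes at or under the median of 455 bases had a median log2 ratio of 0.09, with 13 called higher (32.5%) and 2 lower (5%). The 40 longer genes had a median of 0.03, with 8 higher (20%) and 4 lower (10%). Of all kept genes, 17.5% were called higher and 19% lower. Across the 80 genes, which share the same 2 libraries, coding length on a log scale and log2 ratio had Pearson's r of -0.34 and Spearman's rho of -0.34.

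Gene length was also set beside all kept genes, which include the subunit genes. By the gene length behind the authors' FPKM, the 43 subunit genes under 1000 bases had a median of 0.08, and all 598 kept genes of that size 0.03. The 37 longer subunit genes had a median of 0.03, and all 11942 longer kept genes -0.0036, while gene length and log2 ratio over all kept genes had a Spearman's rho of 0.0095. The protocol in the labels names fragments longer than the 276 bases given for ATP5ME, and the part of fragment size in these ratios was not tested. Spearman's rho was -0.04 between control FPKM and log2 ratio over the 80 genes.

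**Figure D4:**
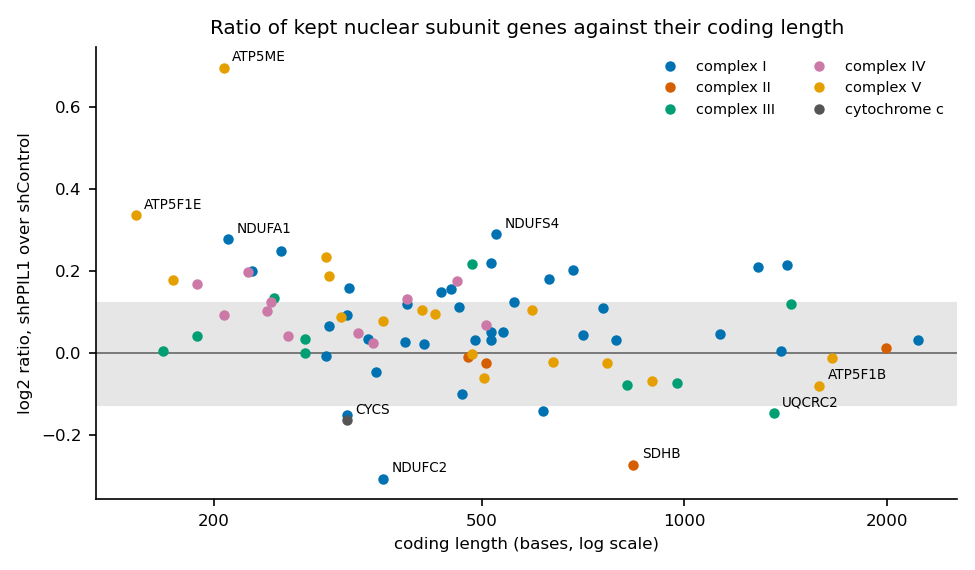
Log2 ratio of the kept genes reported here against their coding length in bases (log scale), coloured by complex, with the middle 50% of all kept genes in grey. Short genes make up most points above the band, ATP5ME (0.70) and ATP5F1E (0.34) highest, while NDUFC2 (-0.31) is lowest at 357 bases and SDHB (-0.27) lies below the band at 840 bases.

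By their medians, the mitochondrially encoded partners were higher than the nuclear subunits of the same complex in each of the 4 complexes that have them. The 7 ND genes of complex I had a median log2 ratio of 0.23 against 0.05 for the nuclear genes. CYTB, the only such gene of complex III, stood at 0.24 against 0.02. The 3 COX genes of complex IV stood at 0.20 against 0.10, and ATP6 and ATP8 of complex V at 0.13 against 0.09. Single genes overlapped: the 5 nuclear genes of complex V called higher all lay above both ATP6 and ATP8. In complex I, NDUFS4 (0.29), NDUFA1 (0.28) and NDUFA3 (0.25) lay above the median of the ND genes.

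**Figure D5:**
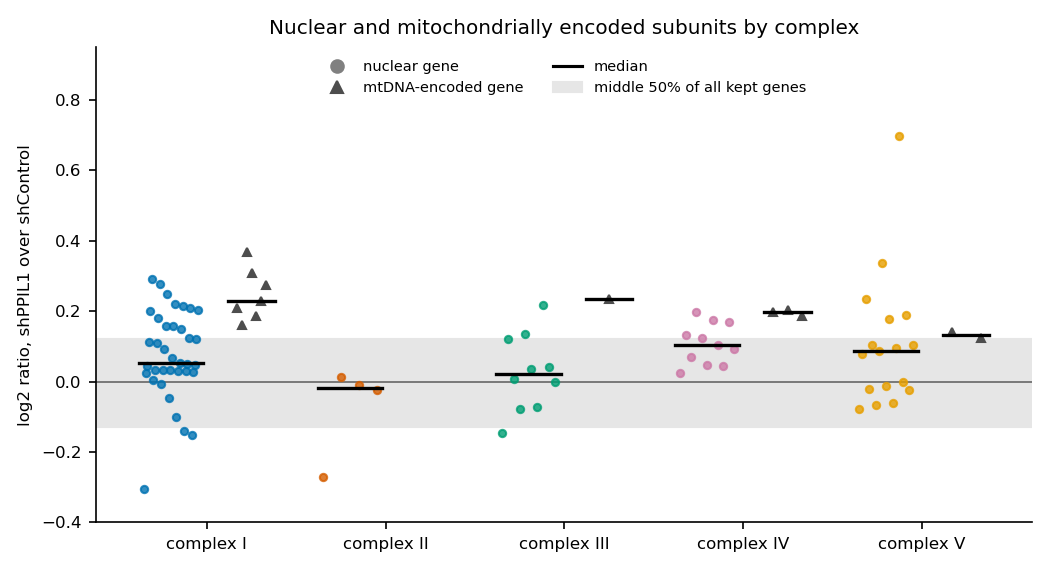
Log2 ratio of the nuclear genes reported here (circles) and mitochondrially encoded genes (triangles) by complex, with medians over all kept genes of a complex as bars and the middle 50% of all kept genes in grey. Complex II has no triangles since it has only nuclear genes, and every triangle lies above the median of the nuclear genes beside it.

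Factors that assemble the complexes are separate genes whose products do not stay in the finished enzyme. Of 53 kept assembly genes, counted together with the ATP synthase inhibitor ATP5IF1, 10 were called higher (18.9%) and 13 lower (24.5%). These shares were near the 17.5% and 19% of all kept genes, and the median was -0.01. Among 18 for complex I, 1 was higher and 5 lower (median -0.08), led by NDUFAF1, with 891 and 615 reads (0.678, 0.611 to 0.752), and NDUFAF4, with 846 and 661 (0.768, 0.692 to 0.851). TMEM186 was the higher gene (1.18, 1.01 to 1.38). Those for complex IV split into 7 higher and 6 lower of 21. COX20, a chaperone of the COX2 subunit, had 1833 and 1177 reads (0.631, 0.586 to 0.679), and COX15, an enzyme of heme A synthesis, 2836 and 2029 (0.703, 0.664 to 0.744). TACO1, which activates translation of COX1, had a ratio of 1.18 (1.11 to 1.26) and the copper carrier COX17 1.15 (1.08 to 1.23).

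For complex II, 1 of 4 kept assembly genes was lower (25%), SDHAF3 (0.816, 0.722 to 0.923). For complex III, 1 of 5 was lower (20%), LYRM7 (0.828, 0.753 to 0.909). These shares were near the 19% of all kept genes, and 0 were higher, where 17.5% of all kept genes were. SDHAF3 helps to insert iron-sulfur clusters into SDHB and LYRM7 does so for UQCRFS1, whose own ratios are given above. Of 5 kept genes for complex V, 2 were higher (40%), TMEM70 (1.15, 1.08 to 1.23) and the inhibitor ATP5IF1 (1.1, 1.05 to 1.15), and 0 were lower.

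Of 8 kept regulators of respiratory genes, 0 were called higher and 3 lower, with a median of -0.09, where 17.5% and 19% of all kept genes were called. The lower genes were the coactivators PPARGC1B (0.816, 0.726 to 0.916) and PPRC1 (0.901, 0.842 to 0.963) and the mitochondrial transcription factor TFAM (0.887, 0.845 to 0.932). NRF1 had 781 and 776 reads (0.976, 0.883 to 1.08) and GABPA 1640 and 1606 (0.962, 0.898 to 1.03). The nuclear receptor ESRRA had a ratio of 1.08 (1.02 to 1.15), and PPARGC1A was not kept, with 6 and 4 reads.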

How the data were processed

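For each library the authors deposited whole-number counts and FPKM values of every gene. The submitters' processing notes name hg38 as the build. Strand setting, annotation, aligner and counter were not given in the sources used here. In the authors' FPKM, count over library total and FPKM gave a whole gene length (within 0.001 bases) for 99.9% of genes above 0. Columns were tied to libraries by the column name in each label, and 7 further columns that match no label were not used.

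Counts were scaled with TMM factors (0.993 and 1.01; edgeR 4.0.16, R 4.3.3). Genes at 1 CPM or more in at least 1 library were kept. Ratios carry exact Clopper-Pearson 95% intervals. For equal counts of 100 the interval reached 1.33-fold and for 1000 it reached 1.09-fold. Intervals cover counting error only, since PCR copies cannot be told from separate molecules here. A floor of 3 reads for libraries at 0 was needed for 0 kept genes. The steps were tested on simulated data with counting error only and changes of 1.5-fold. That simulation did not test recovery at 1.1-fold or variation between libraries.

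Symbols were matched to RefSeq (GRCh38.p14), 82 directly and 2 by synonym. Transcripts, overlaps and copies (exact 100-base windows every 10 bases) came from GENCODE 29, which uses the same genome build. In each complex, up to 3 higher and 3 lower called genes with the most extreme bounds, the most abundant gene, SDH genes, CYCS and isoforms were named with full values, and the rest by ratio or range. The values of 1 kept gene enter counts, medians and sums and are not reported here. The members and lists were chosen with earlier results of these data known. With 1 library per group, no test between conditions was made. Alternatives were median-of-ratios size factors (DESeq2 1.42.0), total reads, other filters, FPKM with pseudocounts of 1 and 0.1, and lists without some genes.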

Additional observations from a re-analysis of the deposited data

How the results depend on the processing

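The median log2 ratio of the 80 genes ran from 0.04 to 0.07 over its 10 alternatives, and those of complexes I, III, IV and V ran from 0.05 to 0.07, 0.0059 to 0.04, 0.07 to 0.12 and 0.09 to 0.11. The median of complex II, -0.02 as reported, was 0.0033 with total reads, 0.0032 with log2(FPKM + 1) and 0.0033 with log2(FPKM + 0.1), and its mean was -0.0732. With total reads, 27 genes were higher and 4 lower at 1.1-fold, and the shares of all kept genes at that scaling are not given. At that scaling the summed log2 ratios were 0.0841 for complex I, 0.0678 for III, 0.127 for IV and 0.0164 for V. With summed FPKM they were 0.104 for complex I and 0.0364 for complex V. Without carriers of GATCAT, 3 of 58 genes were lower, where 19% of all kept genes were. The summed log2 ratio was then -0.0092 for complex II and 0.0313 for complex V. At 1.2-fold, 4 of the subunit genes were higher and 2 lower, and of all kept genes 8.32% were higher and 9.52% lower. Without the 16 kept genes whose exons overlap another gene by at least 20%, 17 were higher and 6 lower, where 17.5% and 19% of all kept genes were. In that alternative, chosen after seeing the data, the sums were 0.0490 for complex I and -0.0172 for complex V. So the sign of the complex V sum depends on these settings. The cause was not tested. Of 84 values of 28 named genes under other scalings or FPKM, 2 changed sign, both of SDHD (0.0111 with total reads and 0.0109 with log2(FPKM + 1)). Total reads moved the median of all kept genes from -0.0017 to 0.02. Depth limits genes such as NDUFB1, NDUFA2 and UQCRHL, whose intervals are wide. No paired analysis was possible because each group has 1 library.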

Other observations

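Genes that make coenzyme Q, the carrier between complexes I, II and III, were called at shares near those of all kept genes. Of 11 kept genes, 2 were called higher (18.2%) and 3 lower (27.3%), where 17.5% and 19% of all kept genes were, with a median log2 ratio of -0.09. COQ5, a methyltransferase of the pathway, had 1460 and 1094 reads (ratio 0.736, 0.680 to 0.797), and PDSS1, which builds the isoprenoid tail, had 2240 and 1899 (0.833, 0.783 to 0.886). COQ2, which joins tail and ring, had 692 and 861 reads (1.22, 1.1 to 1.35), and COQ7 had a ratio of 1.16 (1.05 to 1.29).

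Enzymes that feed electrons to coenzyme Q beside complexes I and II had 0 called higher and 1 lower of 8 (12.5%, against 19% of all kept genes), with a median of -0.09. The lower gene was DHODH, of pyrimidine synthesis, with 548 and 456 reads (0.818, 0.720 to 0.927). ETFA, of the electron transfer flavoprotein, had 15563 and 14709 reads (0.929, 0.908 to 0.95). Of 7 isoform genes outside the subunit list, COX7A2L, a factor of supercomplexes, was kept and higher (1.14, 1.06 to 1.21), and the other 6 had 2 reads or fewer in each library.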
